A study of Homo sapiens with 4 samples.

Results

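Cholesterol synthesis was followed in MCF12A cells through 8 genes that were selected by name. They were *HMGCS1*, *IDI1*, *FDPS*, *FDFT1*, *SQLE*, *LSS* and *DHCR7*, which code for enzymes between acetyl-CoA and cholesterol, and *INSIG1*, which codes for a sterol-dependent brake on the pathway. All 8 were found among the 16811 genes of the deposited table, and all 8 were among the 9590 genes that were tested. No difference between edited and wild-type cells passed the test for any of the 8 genes. Instead, 1 of the 4 libraries stood apart: all 8 genes were highest in edited replicate 1. The margin over edited replicate 2 ran from 1.60-fold (*SQLE*) to 6.06-fold (*INSIG1*). Edited replicate 2 lay closer to the wild-type libraries by median, but was the lowest library for 4 of the 8 genes.

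The MCF12A line is derived from human mammary epithelium and is non-tumorigenic, although the labels describe the source as breast cancer cells. The 2 wild-type libraries came from unedited cells, and the 2 edited libraries from cells labelled *C1orf132* KO, in which the p2 promoter of this long non-coding RNA had been deleted with CRISPR/Cas9. Edited colonies were grown from single sorted cells, and the colony that was sequenced is not given in the sources used here. Both groups were grown in DMEM/F12 with 5% horse serum, EGF at 20 ng/mL, hydrocortisone at 0.5 µg/mL, cholera toxin at 100 ng/mL, insulin at 10 µg/mL and antibiotics. The labels call the 2 samples of each group biological replicates without saying whether they were separate cultures, so p-values measure the spread between these samples only. The RNA of *C1orf132* was not analysed here, and libraries were assigned to groups by label alone.

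Values are a normalized expression signal from the authors, with no unit named. Scaling for transcript length was inferred from the values, and how library size was handled is not given in the sources used here. The values are not read counts. Where a pair of values is given for edited or wild-type cells, replicate 1 comes before replicate 2. For a transcript of 1 kb, 1 read was estimated to be worth a value of 0.1065 to 0.124 over the 4 libraries, which put the 8 genes at about 185 reads (*INSIG1*, wild-type replicate 1) to 16924 reads (*FDFT1*, edited replicate 1). These read numbers are approximate and cover counting error only. All 7 mammary epithelial markers were listed, and they went in both directions. *CDH1* was at 3.89 and 1.54 in the edited libraries against 150 and 123 in the wild-type libraries (limma, adjusted p = 0.00328), and *EPCAM* at 9.93 and 5.29 against 57.6 and 27.8 (limma, adjusted p = 0.0411). *KRT8* was higher in edited cells, at 378 and 365 against 194 and 175 (limma, adjusted p = 0.0449). *KRT5*, *KRT14*, *KRT18* and *KRT19* were not called, with log2 fold changes of -1.17, -3.08, 0.89 and -2.11 (limma, adjusted p = 0.146, 0.0512, 0.305 and 0.0569, the last among all 16811 genes). In such bulk RNA, fewer cells of a type and less RNA per cell cannot be told apart.

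Cholesterol is built from acetyl-CoA through mevalonate, isoprenoid diphosphates, squalene and lanosterol. The supply of the enzymes is set largely by SREBP2, a membrane-bound transcription factor that is carried from the endoplasmic reticulum to the Golgi by SCAP and released by proteases when membrane sterol is low. INSIG proteins hold SCAP back when sterol is plentiful, and cholesterol taken up from serum lowers the demand for synthesis. The related SREBP1 acts mainly on genes of fatty acid synthesis. SREBPs usually act beside NF-Y, a factor that binds the letters CCAAT, and Sp1, which binds GC-rich boxes.

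Promoter windows are shown for members with an entry in the RefSeq table used (GRCh38.p14), since all 8 genes were highest in the same library. The window runs from 250 bases before to 50 bases after the annotated start, and where a gene had several starts the one with the most NF-Y boxes is printed. Capitals mark the NF-Y box, CCAAT, or its reverse complement. There was no entry for *FDFT1* and *SQLE*.
HMGCS1, chr5:43313363-43313662, minus strand: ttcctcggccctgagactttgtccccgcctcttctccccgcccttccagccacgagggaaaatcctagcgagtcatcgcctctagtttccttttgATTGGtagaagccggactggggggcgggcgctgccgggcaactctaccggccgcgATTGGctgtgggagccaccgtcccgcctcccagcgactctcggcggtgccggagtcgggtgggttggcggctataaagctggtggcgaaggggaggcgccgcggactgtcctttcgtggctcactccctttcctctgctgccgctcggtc
IDI1, chr10:1048837-1049136, minus strand: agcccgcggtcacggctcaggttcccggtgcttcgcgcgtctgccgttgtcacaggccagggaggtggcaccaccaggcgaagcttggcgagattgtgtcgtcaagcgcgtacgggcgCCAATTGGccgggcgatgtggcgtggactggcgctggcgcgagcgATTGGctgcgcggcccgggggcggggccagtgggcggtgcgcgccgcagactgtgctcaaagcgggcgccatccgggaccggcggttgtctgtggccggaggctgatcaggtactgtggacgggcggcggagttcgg
FDPS, chr1:155308616-155308915, plus strand: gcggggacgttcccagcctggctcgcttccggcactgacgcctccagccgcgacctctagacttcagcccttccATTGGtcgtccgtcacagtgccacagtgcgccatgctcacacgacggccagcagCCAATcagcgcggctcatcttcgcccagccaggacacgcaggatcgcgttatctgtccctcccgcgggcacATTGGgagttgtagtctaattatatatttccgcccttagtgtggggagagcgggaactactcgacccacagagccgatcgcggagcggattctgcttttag
LSS, chr21:46228725-46229024, minus strand: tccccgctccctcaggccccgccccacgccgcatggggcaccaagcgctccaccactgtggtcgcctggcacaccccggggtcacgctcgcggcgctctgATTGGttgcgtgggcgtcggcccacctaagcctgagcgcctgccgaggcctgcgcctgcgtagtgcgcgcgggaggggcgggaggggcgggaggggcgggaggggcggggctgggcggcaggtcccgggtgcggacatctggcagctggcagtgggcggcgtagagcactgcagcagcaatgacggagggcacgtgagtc
DHCR7, chr11:71448344-71448643, minus strand: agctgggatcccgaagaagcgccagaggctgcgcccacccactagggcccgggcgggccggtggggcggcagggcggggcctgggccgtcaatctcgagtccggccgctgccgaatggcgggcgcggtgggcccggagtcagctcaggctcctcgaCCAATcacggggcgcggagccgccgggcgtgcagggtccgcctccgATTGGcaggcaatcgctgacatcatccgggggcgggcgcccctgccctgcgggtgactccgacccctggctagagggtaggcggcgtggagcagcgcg
INSIG1, chr7:155297628-155297927, plus strand: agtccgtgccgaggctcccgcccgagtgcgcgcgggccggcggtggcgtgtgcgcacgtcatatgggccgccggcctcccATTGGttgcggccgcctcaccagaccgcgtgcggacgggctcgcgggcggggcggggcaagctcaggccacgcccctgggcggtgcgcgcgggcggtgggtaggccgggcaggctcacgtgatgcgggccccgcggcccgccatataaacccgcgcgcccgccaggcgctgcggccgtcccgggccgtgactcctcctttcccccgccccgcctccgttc

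The NF-Y box was present, on either strand, at 1 or more starts of 6 of the 6 members with an entry. In these 6 windows there were 12 matches, from 48 to 176 bases before the start, with 3 in *IDI1* and *FDPS*, 2 in *HMGCS1* and *DHCR7*, and 1 in *LSS* and *INSIG1*. A pair in *IDI1* overlaps, as the box and its reverse complement share letters there. Over all starts of the 6 genes, 7 of 10 windows held the box, against 34.6% of the 35116 full-length windows in the promoter table. Among all 27305 genes of the promoter table, 39.7% had the box at 1 or more starts. The Sp1 box GGGCGG was likewise found in 6 of 6 members, against 48.3% of all genes, and the E-box CACGTG in 2 of 6 (*LSS* and *INSIG1*), against 8.77%. The letters TCACNCCAC, used here for the sterol regulatory element, were found in 0 of 6, against 1.39% of all genes, which says only that these letters are not in these windows. Such matches are descriptions of the reference sequence and not of binding in these cells.

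**Figure D1:**
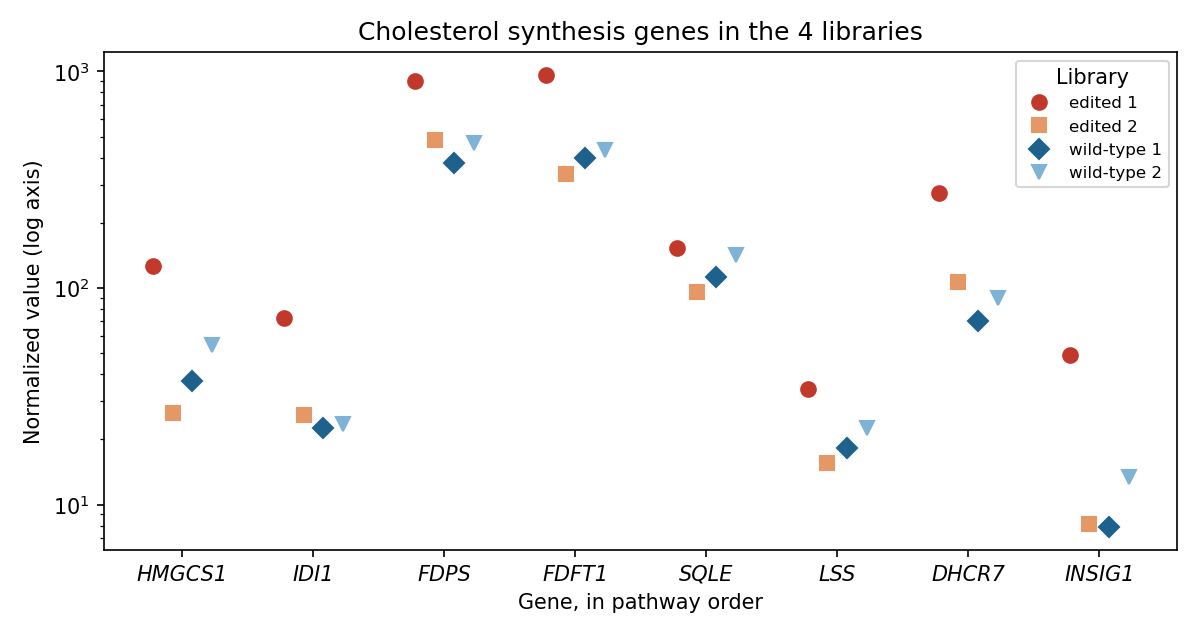
Normalized value (log axis) of each of the 8 genes in each library, in pathway order with *INSIG1* last. The red circle of edited replicate 1 is the highest point for all 8 genes, while edited replicate 2 lies among or beside the wild-type libraries.

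*HMGCS1*, cytosolic HMG-CoA synthase, condenses acetyl-CoA with acetoacetyl-CoA ahead of mevalonate. It was at 126 and 26.5 in edited cells, against 37.2 and 54.5 in wild-type cells. The wild-type libraries thus lay between the edited ones, which differed 4.75-fold. The log2 fold change of edited over wild-type cells was 0.36 with a standard error of 0.70 (limma, adjusted p = 0.753). *IDI1*, which interconverts isopentenyl and dimethylallyl diphosphate, had values of 73.0 and 25.9 in edited cells and 22.7 and 23.5 in wild-type cells. Here the wild-type libraries nearly coincided and both edited libraries were above them, but edited replicate 2 was only 1.12-fold and edited replicate 1 3.16-fold their mean. The difference on the log2 scale was 0.89 ± 0.46 (standard error, limma, adjusted p = 0.238).

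*FDPS* makes farnesyl diphosphate, from which the sterol, ubiquinone and prenylation routes branch. Its values of 898 and 479 in edited cells and 376 and 468 in wild-type cells put edited replicate 2 just above wild-type replicate 2, so the groups were separated by a narrow margin. The difference on the log2 scale was 0.64 ± 0.35 (standard error, limma, adjusted p = 0.252). RefSeq names 10 pseudogenes after *FDPS* and 3 after *IDI1*, and how their reads were shared out is not given in the sources used here. The span of *FDPS* overlaps that of *RUSC1-AS1* and the span of *IDI1* that of *WDR37*, so that with counting of unknown strandedness their values are less certain. *FDFT1*, squalene synthase, commits farnesyl diphosphate to sterols. It had values of 961 and 336 in edited cells and 399 and 432 in wild-type cells, so that the edited libraries lay above and below both wild-type ones (log2 fold change 0.45, standard error 0.49, limma, adjusted p = 0.556).

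*SQLE*, squalene epoxidase, catalyses an oxygen-dependent and slow step. It was at 153 and 95.8 in edited cells and 112 and 141 in wild-type cells, so both wild-type libraries lay between the edited ones. It varied least of the 8 genes and was the only member with a negative log2 fold change (-0.06 ± 0.29, standard error, limma, adjusted p = 0.910). *LSS*, which closes the ring to lanosterol, was at 34.0 and 15.6 in edited cells and 18.2 and 22.5 in wild-type cells. Edited replicate 1 was again above and edited replicate 2 below both wild-type libraries (log2 fold change 0.18, standard error 0.37, limma, adjusted p = 0.765).

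*DHCR7*, which reduces 7-dehydrocholesterol to cholesterol, came closest to a call. Its values were 275 and 107 in edited cells and 70.3 and 89.8 in wild-type cells, so the groups did not overlap. The difference on the log2 scale was 1.10 ± 0.45 (standard error, limma, adjusted p = 0.162). *INSIG1*, itself induced by SREBP, was the lowest of the 8 genes in wild-type cells and differed most between the edited libraries. It was at 49.0 and 8.09 in edited cells and 7.88 and 13.3 in wild-type cells, and edited replicate 2 thus lay between the wild-type libraries. The difference on the log2 scale was 0.92 ± 0.79 (standard error, limma, adjusted p = 0.454).

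Per transcript length, *FDPS* and *FDFT1* were the most abundant members in wild-type cells, with means of 422 ± 64.8 and 415 ± 23.7 (SD, n = 2), which differed by less than their spread. *SQLE* (127 ± 20.7) and *DHCR7* (80.0 ± 13.8) followed, then *HMGCS1* (45.9 ± 12.2), *IDI1* (23.1 ± 0.560) and *LSS* (20.3 ± 2.99), the last pair within their spread of each other, and *INSIG1* (10.6 ± 3.86). In edited cells the spread was larger, at 689 ± 296 for *FDPS*, 648 ± 442 for *FDFT1*, 124 ± 40.5 for *SQLE*, 191 ± 119 for *DHCR7*, 76.3 ± 70.3 for *HMGCS1*, 49.5 ± 33.3 for *IDI1*, 24.8 ± 12.997 for *LSS* and 28.6 ± 28.9 for *INSIG1* (SD, n = 2). In the order of these means, every neighbouring pair except *FDFT1* and *DHCR7* differed by less than its larger SD.

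The 8 genes together had a summed value of 2569 and 1094 in edited cells and of 1044 and 1245 in wild-type cells. This was 0.155% of the sum of all values in edited replicate 1, against 0.0662%, 0.0650% and 0.0862% in the other libraries. The rank of a gene within its own library, which no common factor between libraries can change, was highest in edited replicate 1 for 7 of the 8 genes. *INSIG1* was at the 55.8th percentile of the 9590 tested genes in edited replicate 1, and at 2.88, 1.29 and 11.2 in edited replicate 2 and wild-type replicates 1 and 2. It passed the filter on mean value only through edited replicate 1, so the other libraries place it low among the tested genes. Among all 16811 genes *INSIG1* was at 74.8 in edited replicate 1, and at 40.8, 38.8 and 48.5 in the other libraries in the same order. Among the tested genes, *HMGCS1* was at 79.8 in edited replicate 1, 35.0 in edited replicate 2, and 46.4 and 61.5 in the wild-type libraries. For *SQLE* the percentile in edited replicate 1 (83.2) was below that in wild-type replicate 2 (84.9), so by rank wild-type replicate 2 was the highest library for this gene.

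In limma, with Benjamini-Hochberg adjustment over all tested genes and a threshold of 0.05, 0 of the 8 genes were called, and 0 had an unadjusted p under 0.05. No tested member was called with another pseudocount, filter, scaling or variance estimate either. Of all 9590 tested genes, 2.89% were called higher and 4.20% lower in edited cells, and 3095 had an unadjusted p under 0.05. Of the 8 log2 fold changes 7 were positive, with a median of 0.55, against 0.09 over all tested genes. The edited and wild-type libraries did not overlap for *IDI1*, *FDPS* and *DHCR7*, all higher in edited cells. This is 37.5% of the members, and 38.3% of all tested genes were separated in that direction. The smallest two-sided p of an exact permutation test with 2 libraries a group is 0.333.

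The estimate depended on which edited library was kept. Without edited replicate 1, the median log2 fold change of the 8 genes was -0.31, from -0.74 (*HMGCS1*) to 0.42 (*DHCR7*), and 0 genes were called. Without edited replicate 2 the median was 1.34 and 5 genes were called higher, from 1.21 (*FDFT1*, adjusted p = 0.0408 from limma) to 2.15 (*INSIG1*, adjusted p = 0.00863), with *HMGCS1*, *IDI1* and *DHCR7* between them. That fit rests on 1 edited library, which is assumed to vary like the wild-type ones, and it called 7.11% of all tested genes higher. *FDPS* (1.09, adjusted p = 0.0609), *LSS* (0.72, adjusted p = 0.110) and *SQLE* (0.28, adjusted p = 0.555) were not called in it. Without wild-type replicate 1 the median was 0.44, and without wild-type replicate 2 it was 0.71. The fits with a library left out differed widely in how many of all tested genes they called. Counts of called members therefore cannot be compared between them, and the fits without a wild-type library called few genes of any kind.

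**Figure D2:**
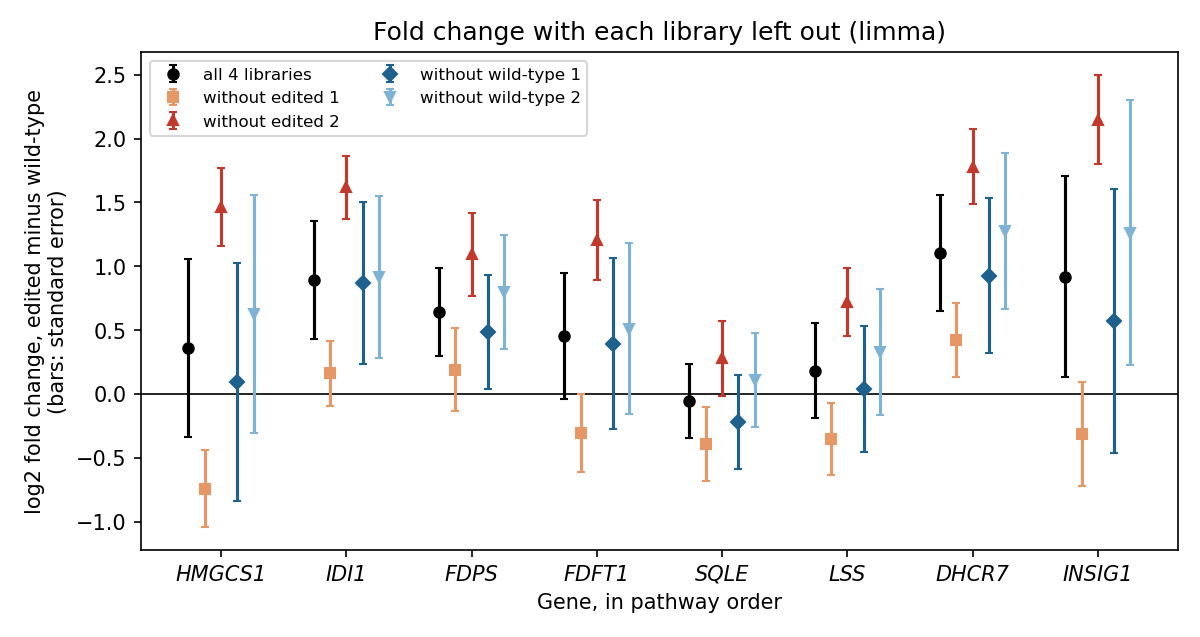
Log2 fold change of edited over wild-type cells from limma, with standard error bars, for all 4 libraries and with each library left out. Without edited replicate 1 the fold changes run from -0.74 to 0.42, and without edited replicate 2 from 0.28 to 2.15.

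The gap between the edited libraries was then compared with that of all genes, as a description, since 1 library against 1 allows no test. Of the 8 genes, 6 were at least 2-fold higher in edited replicate 1 than in edited replicate 2 (value + 1), and so were 1.24% of all tested genes. The 2 below that fold were *FDPS*, 1.87-fold by value, and *SQLE*, 1.60-fold. In order of this gap among 9590 genes, *INSIG1* was number 12, *HMGCS1* number 15, *FDFT1* number 42, *IDI1* number 44, *DHCR7* number 54, *LSS* number 101, *FDPS* number 159 and *SQLE* number 364. *INSIG1* passed the filter on mean value only through edited replicate 1, as its values elsewhere were 8.09, 7.88 and 13.3. For such a low gene the filter itself favours a gap in this direction, so its rank and its part in the 2-fold count are less certain. The median difference was 1.41 on the log2 scale for the members and 0.03 for all tested genes. Edited replicate 1 was the highest library for 8 of 8 members and for 36.7% of all tested genes. Edited replicate 2 was the lowest for 4 of 8 members and for 16.2% of all tested genes, so the gap has a part from each.

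The wild-type libraries also differed in one direction. All 8 genes were higher in wild-type replicate 2 than in wild-type replicate 1, and 36.0% of all tested genes were. The ratio ran from 1.03 (*IDI1*) and 1.08 (*FDFT1*) to 1.46 (*HMGCS1*) and 1.69 (*INSIG1*), so *HMGCS1* and *INSIG1* varied most within both groups. The summed epithelial markers were at 5855 and 14209 in wild-type cells, against 4253 and 3913 in edited cells. Most of this sum was *KRT5*, at 4590 and 11914 in wild-type cells. *KRT5*, *KRT14* and *KRT19* were higher in wild-type replicate 2, whereas *EPCAM*, *CDH1*, *KRT8* and *KRT18* were higher in wild-type replicate 1. Their part in the result was not tested.

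**Figure D3:**
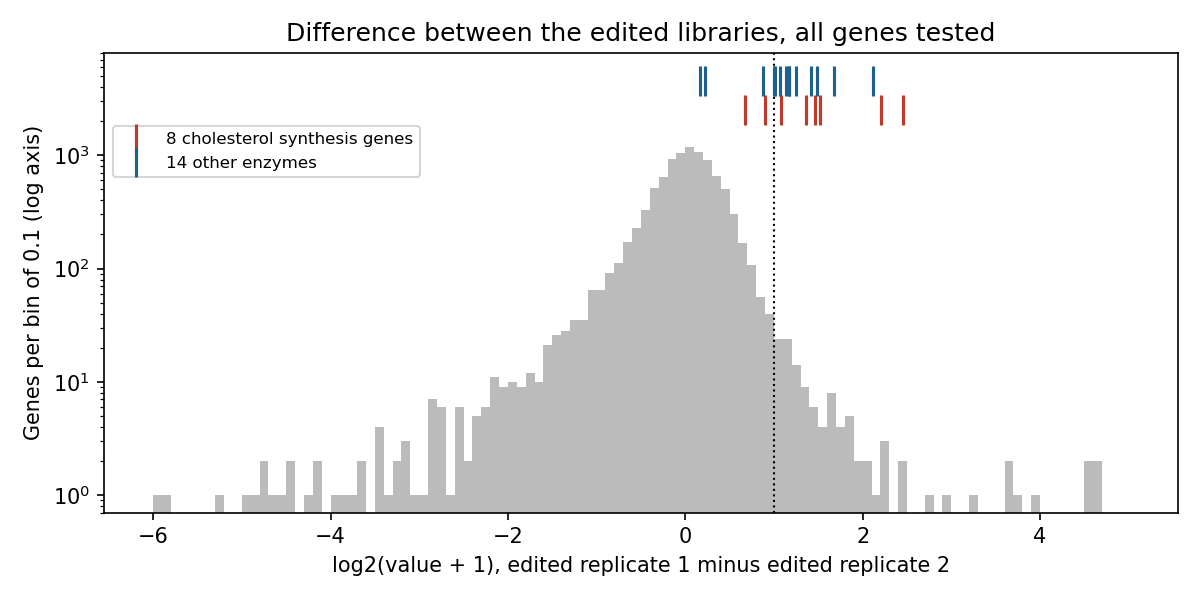
Histogram (log axis) of log2(value + 1) in edited replicate 1 minus edited replicate 2 for the 9590 tested genes, with red ticks for the 8 genes, blue ticks for 14 other enzymes and a dotted line at a 2-fold difference. The ticks all lie above 0, and 16 of 22 lie at or beyond the line.

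The other enzymes of the route were examined next, from a list of 15 genes, of which *IDI2* was not analysed here. All 14 tested genes were highest in edited replicate 1, and 10 of 14 were at least 2-fold higher there than in edited replicate 2, with a median difference of 1.15 on the log2 scale. By limma 0 of 14 were called between edited and wild-type cells, and 2 had an unadjusted p under 0.05. Of all 9590 tested genes, 2.89% were called higher, 4.20% lower, and 3095 had an unadjusted p under 0.05. Fold changes were positive for 11 of 14, against 56.7% of all tested genes, with a list median of 0.41 on the log2 scale. *ACAT2*, which condenses acetyl-CoA at the entry of the route, was at 117 and 43.2 in edited cells against 28.4 and 38.4 in wild-type cells. *TM7SF2*, a sterol C14 reductase, showed the widest gap of this list, at 45.3 and 9.70 against 20.1 and 17.6.

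Among the mevalonate kinases and decarboxylase, *MVK* was 2.88-fold and *MVD* 2.28-fold higher in edited replicate 1 than in edited replicate 2, but *PMVK* only 1.17-fold (87.0 and 74.2 in edited, 50.1 and 59.5 in wild-type cells). After lanosterol the same ratio was 3.26 for *MSMO1*, 2.32 for *HSD17B7*, 2.23 for *NSDHL*, 2.10 for *EBP*, 2.02 for *SC5D* and 1.85 for *CYP51A1*. Among these late steps, *SC5D* and *HSD17B7* had negative log2 fold changes of edited over wild-type cells (-0.09 and -0.31, adjusted p = 0.877 and 0.607 from limma). *LBR*, which is both a nuclear envelope protein and a sterol C14 reductase, differed little between the edited libraries, with 133 and 118 in edited cells and 69.3 and 42.6 in wild-type cells. The difference on the log2 scale was 1.19 ± 0.27 (standard error, limma, adjusted p = 0.0595).

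**Figure D4:**
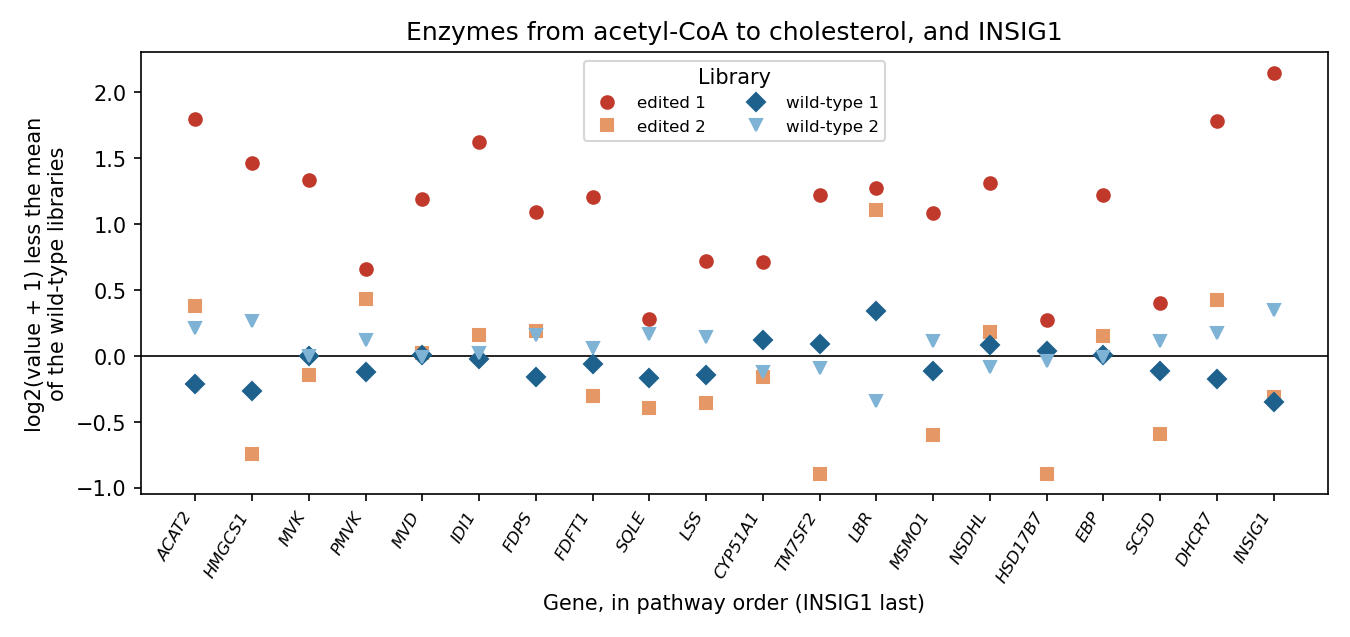
Log2(value + 1) of 19 enzymes and *INSIG1* in each library, less the mean of the wild-type libraries, from acetyl-CoA on the left to cholesterol on the right. Edited replicate 1 is above 0 for every gene shown, whereas edited replicate 2 runs from -0.90 (*HSD17B7*) to 1.11 (*LBR*).

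Genes that govern SREBP were described in the same way. Of 11 tested genes in this list, 0 were 2-fold higher in edited replicate 1 than in edited replicate 2 (value + 1), with *NR1H3* just under that fold, and the median difference was 0.03 on the log2 scale. By limma 0 of the 11 were called, and 2 had an unadjusted p under 0.05, as did 3095 of all 9590 tested genes. *SREBF2*, the gene of SREBP2, was at 79.5 and 90.2 in edited cells and 96.4 and 126 in wild-type cells, with edited replicate 1 the lowest library. *SREBF1* was at 154 and 90.4 against 86.3 and 154. *SCAP* was at 88.1 and 86.4 against 75.4 and 65.7. The SREBP protease genes *MBTPS1* and *MBTPS2* and the ligase gene *RNF139* had adjusted p-values of 0.360, 0.847 and 0.844 (limma). *INSIG2*, the paralogue of *INSIG1*, was at 23.7 and 26.4 in edited cells and 38.9 and 38.9 in wild-type cells (log2 fold change -0.62, limma, adjusted p = 0.0772). The ratio of *INSIG1* to *INSIG2* was therefore 2.07 in edited replicate 1 and 0.306, 0.203 and 0.343 in the other libraries.

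The sterol-sensing nuclear receptor genes *NR1H2* and *NR1H3* were not called (adjusted p = 0.334 and 0.320 from limma). *MYLIP*, a sterol-regulated ubiquitin ligase, had a mean under 10 and was tested among all 16811 genes (1.46 and 1.06 in edited, 3.78 and 6.45 in wild-type cells, log2 fold change -1.41, limma, adjusted p = 0.0656).

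**Figure D5:**
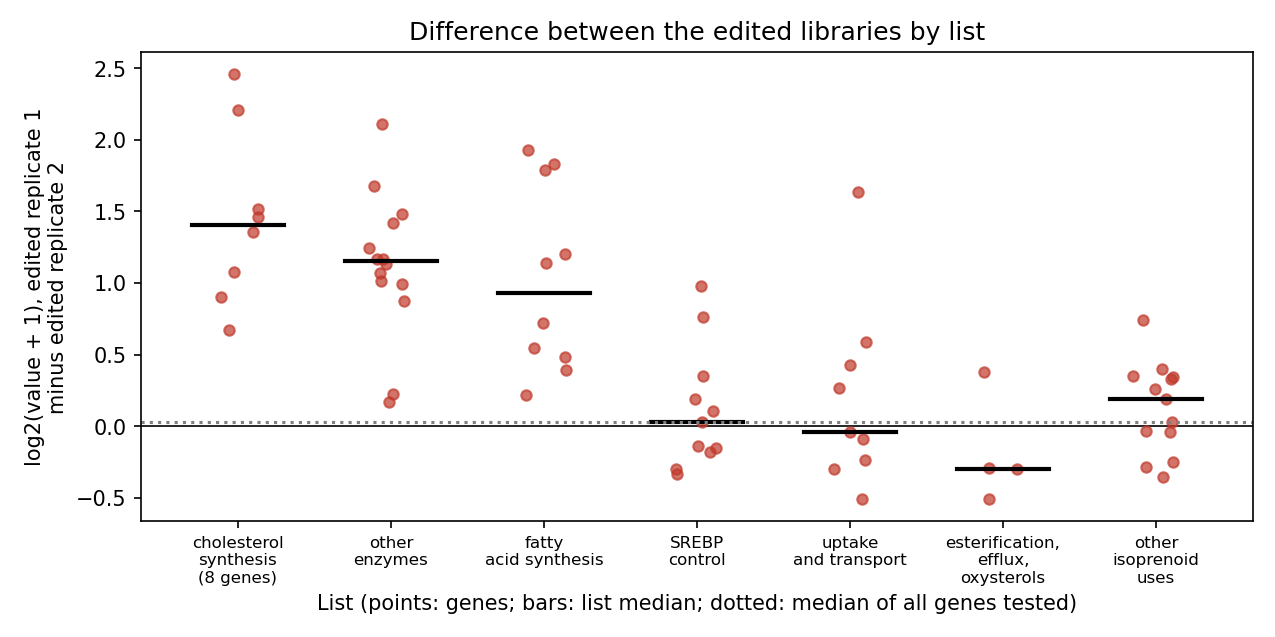
Log2(value + 1) in edited replicate 1 minus edited replicate 2 for each tested gene (points) of 7 lists, with the list median as a bar and the median of all tested genes as a dotted line. The medians are 1.41, 1.15 and 0.93 for the 8 genes, the other enzymes and fatty acid synthesis, and from -0.30 to 0.19 for the remaining lists.

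Of the 61 tested genes on all 6 lists beside the members, 1 passed the test in limma, and 0 did with the replicate block, without edited replicate 1 or without either wild-type library. Of all 9590 tested genes, 680 passed the test with all 4 libraries. Uptake and transport genes went either way, with *NPC2*, *SCARB1* and *LIPA* at log2 fold changes of -0.38, 0.74 and -0.38 (adjusted p = 0.298, 0.121 and 0.288 from limma). Of the 9 tested genes of this list 4 were higher. *STARD4*, a sterol carrier named after its values were seen, was the only one of them at least 2-fold higher in edited replicate 1 than in edited replicate 2 (25.1 against 7.39, with 14.1 and 33.0 in wild-type cells).

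Fatty acid synthesis genes also stood higher in edited replicate 1. All 10 tested genes were higher in edited replicate 1 than in edited replicate 2, and 5 of 10 at least 2-fold. These 5 were *FASN*, *SCD*, *ELOVL6*, *FADS2* and *LPIN1*, the last 4 named after their values were seen. Of all tested genes, 53.4% were higher in edited replicate 1 than in edited replicate 2, and 1.24% at least 2-fold. *ELOVL6* and *FADS2* reached the mean of 10 only through edited replicate 1. Under that mean, *GPAM* was at 4.44 and 6.26 in edited cells, and *ACACA* at 3.26 and 1.24. *FASN*, fatty acid synthase, was at 269 and 116 in edited cells and 87.9 and 96.0 in wild-type cells (log2 fold change 0.94, limma, adjusted p = 0.175). *SCD*, which introduces the double bond of oleate, was at 170 and 46.9 against 48.5 and 111, so its wild-type replicates differed 2.28-fold. *ACLY* and *ACSS2*, the sources of cytosolic acetyl-CoA, differed less between the edited libraries (1.65-fold and 1.31-fold) and were not called between groups (adjusted p = 0.110 and 0.144 from limma). By limma 0 of the 10 were called, and the median log2 fold change was 0.61. An unadjusted p under 0.05 was found for 2 of them and for 3095 of all 9590 tested genes.

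Other users of the isoprenoid diphosphates came last. Of 13 tested genes, 0 reached a 2-fold gap between the edited libraries, with a median of 0.19 on the log2 scale. By limma 0 were called between groups and 4 had an unadjusted p under 0.05, as did 3095 of all 9590 tested genes. *GGPS1*, which draws on farnesyl diphosphate for geranylgeranyl diphosphate, was at 60.7 and 59.6 in edited cells and 62.6 and 62.3 in wild-type cells. The ratio of *FDFT1* to *GGPS1*, at this branch point, was 15.8 in edited replicate 1 and 5.63, 6.37 and 6.93 in the other libraries. The prenyltransferase subunits *FNTA*, *RABGGTA* and *RABGGTB* had log2 fold changes of -0.26, -0.41 and 0.58 (adjusted p = 0.474, 0.225 and 0.155 from limma). Of esterification, efflux and oxysterol genes 4 were tested and 0 called by limma, and 1 (*SOAT1*) had an unadjusted p under 0.05. The 4 were *SOAT1*, *ABCA2*, *LPCAT3* and *NCEH1* (adjusted p = 0.0754, 0.588, 0.984 and 0.250 from limma). *ABCA1*, the sterol efflux pump, had a mean under 10 and was lowest in edited replicate 1, at 0.274 against 2.39 in edited replicate 2 and 4.37 and 4.68 in wild-type cells (adjusted p = 0.138 among all 16811 genes, limma).

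On chromosomes, the 8 genes are dispersed. In GRCh38.p14, *HMGCS1* lies on chromosome 5 from 43287470 to 43313412, *IDI1* on chromosome 10 from 1039152 to 1056704, *FDPS* on chromosome 1 from 155308866 to 155320665 and *DHCR7* on chromosome 11 from 71427287 to 71449043. *FDFT1* and *SQLE* share chromosome 8, from 11795582 to 11839298 and from 124998505 to 125022283. *LSS* lies on chromosome 21 from 46188446 to 46228774 and *INSIG1* on chromosome 7 from 155297878 to 155310235. Over the tested genes of a chromosome, the log2 fold change had a median of 0.36 on chromosome 5 and -0.19 on chromosome 7, and from 0.06 to 0.25 on the other 5. Less that median, the log2 fold change was 0.00 for *HMGCS1*, 1.11 for *INSIG1* and -0.07 for *LSS*. For *IDI1*, *FDPS*, *FDFT1*, *SQLE* and *DHCR7* it was 0.80, 0.58, 0.39, -0.12 and 0.94.

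The profile of the members over the 4 libraries was also sought among the other genes. The median profile of log2(value + 1), less its mean, was 1.06 and -0.42 in edited cells and -0.48 and -0.16 in wild-type cells. Root mean squared distances to it ran from 0.117 (*FDFT1*) to 0.450 (*SQLE*) among the members, with a median of 0.253. Of 9512 genes outside all lists, 26 lay within that median. The nearest were RP11-554I8.2 (0.0774), *HRCT1* (0.149), *AP1S3* (0.163), *ABHD14A* (0.179) and *TSPYL2* (0.186). RP11-554I8.2 and *ABHD14A* reached the mean of 10 only through edited replicate 1, so among low genes the filter itself favours this profile. *AP1S3*, for example, was at 45.6 and 18.4 in edited cells and 12.9 and 21.2 in wild-type cells. With 4 libraries this likeness says nothing of shared function or control.

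Markers of other cell types could be analysed only in part. Of 8 fibroblast markers 2 were analysed, of 5 adipocyte markers 1, of 4 endothelial markers 0 and of 4 white blood cell markers 1. The summed fibroblast value was 18.3 and 111 in edited cells and 23.0 and 29.2 in wild-type cells, but its 2 genes went opposite ways. *DCN* was at 15.1 and 105 in edited cells against 7.42 and 1.09 in wild-type cells (limma, adjusted p = 0.0974), and *COL1A1* at 3.19 and 5.58 against 15.6 and 28.1 (limma, adjusted p = 0.0420). The adipocyte marker *FABP4* was at 2.20 and 1.31 in edited cells and 1.26 and 25.9 in wild-type cells, and *CD68* was between 32.7 and 49.1. The sums were not highest in edited replicate 1 for any of these lists, and their part in the result was not tested.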

How the data were processed

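RNA-seq of 2 edited and 2 wild-type libraries used poly(A) selection and 75-base single-end reads. In 1 table, the authors deposited values of normalized expression signal for 16811 genes by symbol. The submitters' processing notes name HISAT2, Salmon and hg38. Roles, versions, annotation, normalization and filters are not given in the sources used here. Scaling for transcript length was inferred, since low values of genes with 1 transcript were spaced by a step that falls with length. The step was estimated from transcripts of 300 to 1000 bases, and read numbers used the canonical GENCODE transcript, as an approximation. Whole reads were not recovered, so count tests, which the plan allowed, were not used. Shared between-library scaling can shift all genes of a library alike.

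The groups were compared in R 4.3.3 with lmFit and eBayes (trend) of limma 3.58.1, for genes whose mean value reached 10, on log2(value + 1), a scale that understates changes of low genes, with Benjamini-Hochberg adjustment. Calls were made at 0.05, the general threshold of the paper, and 0.001, its RNA-seq threshold, was an alternative. Genes under the mean of 10 were tested among all 16811 genes. The script was tested on simulated data. The members, lists and the rule for naming genes were chosen with earlier results of these data known. The rule named the members, all genes of the enzyme and SREBP lists, called genes and up to 3 abundant genes of the other lists, and the 5 nearest profiles. Some genes that it names, among them the 1 called gene of the lists, are not reported here, although counts include them. *IDI2*, *CH25H*, *CYP27A1* and *CYP7B1* were not analysed here. Same-numbered libraries showed only a weak tendency to deviate in opposite directions from their group means (correlation across 9590 genes -0.14). Nothing in the labels pairs them, so no block was used. Gene positions and promoters came from RefSeq (GRCh38.p14). Python 3.11.15, numpy 2.4.6 and pandas 2.3.3 were used.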

Additional observations from a re-analysis of the deposited data

How the results depend on the processing

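With 2 libraries a group, and edited libraries that differed this much, the data do not settle the size or direction of a difference in these genes. The number of the 8 genes called was 0 with all 4 libraries under every alternative in pseudocount, filter, scaling, variance estimate, threshold, replicate block and crossed pairing, and 0 to 5 with each library left out, the 5 without edited replicate 2. The filter at a mean of at least 50 left *IDI1*, *LSS* and *INSIG1* untested, so for them it shows nothing. With all 4 libraries, an unadjusted p under 0.05 was found for 1 tested member with that filter and 2 with the crossed pairing. The median log2 fold change of the 8 genes ran from -0.31 to 1.34 with each library left out. Single genes that changed sign were *HMGCS1* (-0.74 to 1.46 over the libraries left out), *FDFT1* (-0.30 to 1.21), *SQLE* (-0.39 to 0.28), *LSS* (-0.35 to 0.72) and *INSIG1* (-0.31 to 2.15). *LSS* also turned to -0.065 less the median of its chromosome. *IDI1*, *FDPS* and *DHCR7* kept a positive sign under all alternatives run.

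Of the 61 tested genes of the other lists, 1 was called, and 0 to 16 with each library left out. It was 2 with a mean of at least 50, with quantile normalization and with the crossed pairing, 3 with the robust variance estimate, and 0 with the replicate block and at 0.001. Over all genes, 680 calls became 419 with a mean of at least 50 (4192 genes tested), 133 with the replicate block, 1 at 0.001, and 4 to 1431 with each library left out (4 without wild-type replicate 2, 47 without wild-type replicate 1, 424 without edited replicate 1). The share of higher calls was 277 of 680, against 224 of 795 with no filter, 228 of 419 with a mean of at least 50 and 26 of 133 with the replicate block. Equal library totals moved the median log2 fold change of all genes from 0.09 to -0.03, and that of the 8 genes from 0.55 to 0.43. The cause of these shifts was not tested. Only the numbers pair the libraries, and the crossed pairing, chosen after seeing the data, gave 1002 calls. Percentiles among all 16811 genes moved by more than the replicate spread for 23 of 32 values. No library was tested as an outlier, since groups hold 2 samples.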
